A study of Mus musculus with 8 samples.

Results

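The results concern 9 transcription factor genes that establish and maintain beta cell identity, *Pdx1*, *Mafa*, *Nkx6-1*, *Nkx2-2*, *Neurod1*, *Isl1*, *Pax6*, *Foxa2* and *Rfx6*. They were taken by name, and all 9 were present among the 17362 genes measured. Their RNA was followed by single nucleus RNA-seq in pancreatic islets of wild type (WT) mice and of mice that carry an alanine in place of a serine of Med14 throughout the body (Med14 S983A). Med14 is a structural core subunit of Mediator, through which transcription factors reach RNA polymerase II, and the serine was studied as a target of protein kinase A (PKA). Because a point substitution need not alter the level of its own transcript, *Med14* RNA could not serve as a check of genotype. Islets of each genotype were cultured without treatment (CON) or with 10 nM of the GLP-1 receptor agonist Exendin-4 (Ex-4) for 16 h. Others received the adenylate cyclase agonist forskolin (FSK), for 16 h by the authors' account, at a dose not stated in the labels. The 6 conditions were therefore WT CON, WT Ex-4, WT FSK, Med14 S983A CON, Med14 S983A Ex-4 and Med14 S983A FSK, and every cell type of a mutant mouse carried the substitution. About 100 hand-picked islets went into a sample, nuclei were sorted on DAPI, and each of the 8 sequenced sublibraries held nuclei of all 6 conditions.

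Each gene has 1 pooled value in a given cell type and condition. Neither a test between conditions nor a replicate spread could therefore be computed, and fewer expressing nuclei cannot be told apart from less RNA per nucleus. Condition cannot be told apart from islet preparation and barcode well. Levels are given as counts per 10000 counts of the column (CP10K) with exact Poisson 95% intervals, and ratios with exact conditional binomial 95% intervals; both cover counting error only. Beta cell columns were deepest, at 1915006 to 3094377 counts, followed by alpha cells at 269394 to 810127, delta cells at 362410 to 631433 and PP cells at only 38625 to 127727. The column labels were checked against marker genes. The summed level of 6 beta cell markers (*Ins1*, *Ins2*, *Iapp*, *G6pc2*, *Slc2a2*, *Ucn3*) was 34.8 to 43.2 CP10K in beta cells and 2.85 to 5.52 in alpha cells, 5.01 to 8.69 in delta cells and 1.27 to 8.54 in PP cells. *Gcg*, which encodes glucagon, was highest in alpha cells, and the delta and PP cell markers were each highest in the columns of their own name, in 6 of 6 conditions over the 4 endocrine types. Acinar markers could not be checked, since none of the 5 listed is among the genes of the table.

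These factors act as a network in which many members bind the control regions of the others and of the insulin genes. *Pdx1*, *Mafa* and *Nkx6-1* encode the factors most restricted to beta cells in the adult mouse islet. Pdx1 is a homeodomain protein required to form the pancreas, Mafa is a basic leucine zipper activator of insulin that marks mature beta cells, and Nkx6-1 is a homeodomain repressor of other endocrine fates. The remaining members serve several endocrine lineages: the homeodomain protein Nkx2-2, the basic helix-loop-helix activator Neurod1, the LIM homeodomain protein Isl1, the paired domain protein Pax6, the forkhead pioneer factor Foxa2 and the winged helix protein Rfx6. In beta cells GLP-1 receptor signaling and FSK both raise cAMP, which activates PKA and the transcription factor CREB. CREB binds the cAMP response element (CRE), TGACGTCA, and its core, TGACG.

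By GENCODE annotation of GRCm39 the members span from 2.739 to 52.677 kb. *Mafa* spans 2739 bases (chr15:75617339-75620077, minus strand), *Foxa2* 4209 (chr2:147884797-147889005, minus), *Neurod1* 4430 (chr2:79282865-79287294, minus), *Pdx1* 5890 (chr5:147206769-147212658, plus) and *Nkx6-1* 7073 (chr5:101806005-101813077, minus). *Isl1* spans 11419 bases (chr13:116434817-116446235, minus), *Nkx2-2* 16698 (chr2:147019466-147036163, minus), *Pax6* 31719 (chr2:105499234-105530952, plus) and *Rfx6* 52677 (chr10:51553852-51606528, plus). Of the 9 members 5 overlap another annotated gene, and since no source used here states how strand was treated in counting, their counts carry that uncertainty. *Neurod1* lies within the same-strand gene *Cerkl*, which had 5763 counts over the 6 beta cell columns. On the opposite strand *Plut* overlaps *Pdx1* (1345 beta cell counts), *Nkx2-2os* overlaps *Nkx2-2* (378), *Elp4* and *Pax6os1* overlap *Pax6* (4749 and 4073), and *Gm62966* overlaps *Mafa*.

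RefSeq promoter windows (table build GRCm38.p6) were found for 8 of the 9 members, and each was placed on GRCm39 by exact match. The 250 bases before each start were searched on both strands, and bases from the first annotated exon onward are not printed. The 4 windows below are shown because they contrast members with and without the letters of the CRE in a study of cAMP signaling. Capitals mark TGACGTCA or TGACG on either strand, and the core is contained in the full element.
Pax6 (chr2:105498991-105499233, plus strand): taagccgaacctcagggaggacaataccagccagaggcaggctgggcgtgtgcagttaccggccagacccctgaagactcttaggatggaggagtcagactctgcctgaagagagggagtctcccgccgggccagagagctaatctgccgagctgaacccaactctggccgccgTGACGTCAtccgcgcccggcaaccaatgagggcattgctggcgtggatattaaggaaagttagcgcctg
Isl1 (chr13:116446236-116446474, minus strand): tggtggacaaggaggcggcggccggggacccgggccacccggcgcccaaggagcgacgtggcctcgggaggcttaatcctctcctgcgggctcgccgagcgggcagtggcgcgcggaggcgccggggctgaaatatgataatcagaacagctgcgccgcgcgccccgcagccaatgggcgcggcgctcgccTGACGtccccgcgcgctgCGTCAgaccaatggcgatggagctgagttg
Foxa2 (chr2:147889006-147889139, minus strand): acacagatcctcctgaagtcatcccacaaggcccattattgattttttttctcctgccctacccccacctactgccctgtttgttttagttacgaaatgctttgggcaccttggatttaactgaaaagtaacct
Rfx6 (chr10:51561364-51561613, plus strand, inside the GENCODE gene body): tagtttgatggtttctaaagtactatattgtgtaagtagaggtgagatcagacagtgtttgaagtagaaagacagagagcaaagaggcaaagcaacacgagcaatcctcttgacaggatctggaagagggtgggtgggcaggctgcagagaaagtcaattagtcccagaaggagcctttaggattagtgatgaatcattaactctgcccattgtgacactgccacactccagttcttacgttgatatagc
The full CRE of *Pax6* runs from 76 to 69 bases before the start, and the cores of *Isl1* from 59 to 55 and, on the reverse strand, from 41 to 37. The full element occurs in 1.55% and the core in 17.8% of 32851 RefSeq promoter windows of the same length. *Nkx6-1* has 1 core, 248 to 244 bases before the start, a second *Pax6* window has 2, and no match was found in the windows of *Pdx1*, *Nkx2-2*, *Neurod1*, *Foxa2* or *Rfx6*. A match of letters is a description of the window and not a measured binding site.

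To place the members in beta cells, their levels were first compared per kilobase. *Neurod1* and *Nkx2-2* were highest, with medians over the 6 conditions of 0.327 and 0.324 CP10K per kb. *Pdx1* (0.282), *Mafa* (0.276) and *Nkx6-1* (0.269) followed, and then *Pax6* (0.233) and *Isl1* (0.212). The ranges over conditions of neighbours in this order overlapped down to *Isl1*. *Rfx6* (0.0715) and *Foxa2* (0.0633) were lower, and their ranges overlapped each other but not that of any other member. This order rests on division by gene length. By median CP10K alone *Pax6* (7.4), *Nkx2-2* (5.4) and *Rfx6* (3.8) were highest, *Neurod1* was at 1.45, and *Mafa* (0.756) and *Foxa2* (0.266) were lowest.

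Across the 6 conditions the members fell into steady and variable genes. *Nkx2-2* was the steadiest, with a highest level only 1.14 times the lowest, followed by *Neurod1* at 1.30, *Pax6* at 1.32, *Isl1* at 1.36, *Pdx1* at 1.59 and *Rfx6* at 1.76. *Mafa* (2.27 times), *Nkx6-1* (2.46) and *Foxa2* (4.97) varied most. *Foxa2* was also the least counted member, with 26 to 107 counts in a beta cell column.

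The 3 variable members had the following levels. *Mafa* RNA stood at 0.505 CP10K under WT CON (152 counts), 1.14 in WT Ex-4 (340), 0.588 in WT FSK (182), 1.01 in Med14 S983A CON (194), 0.924 in Med14 S983A Ex-4 (177) and 0.504 in Med14 S983A FSK (116). WT CON and the 2 FSK conditions were thus low, and their intervals did not overlap those of the other 3 conditions. *Nkx6-1* was at 1.69 CP10K in WT CON (510 counts), 2.12 in WT Ex-4 (631), 0.979 in WT FSK (303), 2.41 in Med14 S983A CON (464), 2.27 in Med14 S983A Ex-4 (435) and 1.05 in Med14 S983A FSK (243). Both FSK conditions lay below all others, and WT CON lay between them and the remaining 3. *Foxa2* was at 0.166 CP10K in WT CON (50 counts), 0.359 in WT Ex-4 (107), 0.0840 in WT FSK (26), 0.390 in Med14 S983A CON (75), 0.418 in Med14 S983A Ex-4 (80) and 0.174 in Med14 S983A FSK (40). As for *Mafa*, WT CON and the FSK conditions were the 3 lowest, and the WT CON interval (0.123 to 0.219) overlapped that of Med14 S983A FSK (0.124 to 0.237).

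The order of conditions was another for *Rfx6*. Its level was 5.07 CP10K in WT CON (1527 counts), 3.83 in WT Ex-4 (1141), 2.88 in WT FSK (891), 3.78 in Med14 S983A CON (728), 3.75 in Med14 S983A Ex-4 (718) and 3.36 in Med14 S983A FSK (773). WT CON was above every other condition with no overlap of intervals, and WT FSK was below every other condition. *Pdx1* was at 1.64 CP10K in WT CON (495 counts), 2.07 in WT Ex-4 (618), 1.35 in WT FSK (419), 1.86 in Med14 S983A CON (358), 1.68 in Med14 S983A Ex-4 (322) and 1.30 in Med14 S983A FSK (300). *Pax6* was at 6.41 CP10K (1931 counts) in WT CON, 7.76 in WT Ex-4, 6.22 in WT FSK, 8.22 in Med14 S983A CON, 8.17 in Med14 S983A Ex-4 and 7.03 in Med14 S983A FSK. For both genes the FSK column was lowest within its genotype, although in WT the *Pax6* intervals of CON (6.13 to 6.70) and FSK (5.94 to 6.50) overlapped.

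The last 3 members moved little in beta cells. *Nkx2-2* ran from 4.98 CP10K in WT CON to 5.66 in Med14 S983A Ex-4, and its 3 mutant levels (5.61 to 5.66) were all above its 3 WT levels (4.98 to 5.20). The intervals of WT Ex-4 (4.94 to 5.46) and WT FSK (4.90 to 5.40) overlapped those of the mutant columns. That of WT CON (4.73 to 5.24) did not. *Neurod1* ran from 1.32 CP10K in WT FSK to 1.71 in WT Ex-4. *Isl1* ran from 1.88 CP10K in WT FSK to 2.57 in Med14 S983A Ex-4, with 2.16 in Med14 S983A FSK and 2.42 to 2.51 in the other 3 conditions.

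**Figure D1:**
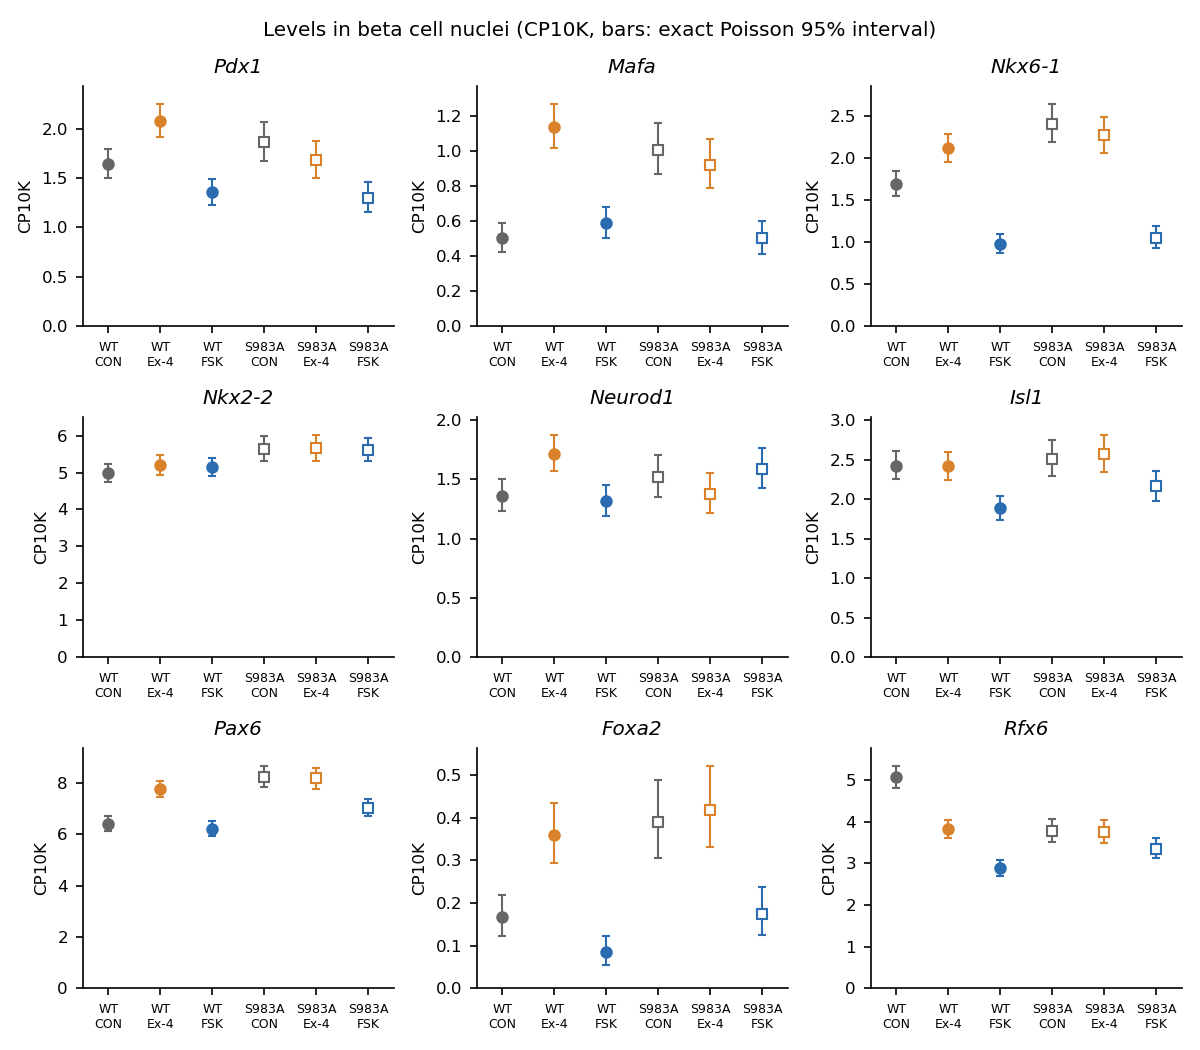
Levels of the 9 members in beta cell nuclei (vertical axes, CP10K, starting at 0) in the 6 conditions (horizontal axes), with filled circles for WT, open squares for Med14 S983A, and bars for the exact Poisson 95% interval of each pooled value. *Mafa* and *Foxa2* were low in WT CON and in both FSK conditions, *Nkx6-1* was lowest under FSK, and *Rfx6* was highest in WT CON at 5.07 CP10K.

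To ask what Ex-4 changed in WT beta cells, WT Ex-4 was compared with WT CON among the genes with at least 50 counts in both columns together, which all 9 members passed. *Mafa* was 2.26-fold higher (95% interval 1.86 to 2.76) and *Foxa2* 2.16-fold higher (1.53 to 3.09). Smaller increases, with intervals that did not include 1, were measured for *Pdx1* (1.26-fold), *Neurod1* (1.26-fold), *Nkx6-1* (1.25-fold) and *Pax6* (1.21-fold). The *Nkx2-2* ratio was 1.04 (0.971 to 1.12) and the *Isl1* ratio 0.998 (0.899 to 1.11). *Rfx6* was the single member whose level was lower beyond counting error, with a ratio of 0.755 (0.699 to 0.816).

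Set against all genes, these increases were not particular to the members. With a threshold of 1.5-fold, 2 of 9 members were higher and 0 lower, while 26.0% of 9448 genes were higher and 12.7% lower. The median log2 ratio was 0.32 for the members, 0.14 for all genes kept and 0.42 for the kept genes no longer than *Rfx6*. The ratio fell with gene length: among the shortest genes (median 4.37 kb) the median log2 ratio was 1.12, and among the longest (421 kb) it was -0.65. After the length trend was removed, the log2 ratio of *Mafa* went from 1.18 to -0.04 and that of *Foxa2* from 1.11 to 0.01. The smaller increases turned in direction, *Pdx1* to -0.64, *Neurod1* to -0.75 and *Nkx6-1* to -0.58, except for *Pax6* at 0.07. With *Isl1* at -0.70, 0 members were then higher and 3 lower. The share of counts in 14 ribosomal RNA linked and mitochondrial genes was 3.46% in WT CON and 9.23% in WT Ex-4 beta cells. Rescaling the column totals without these genes left 2 members higher and 0 lower, with a median log2 ratio of 0.41. The part of this share in the result was not tested beyond that rescaling.

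In Med14 S983A beta cells the same 10 nM Ex-4 left all 9 members within counting error of CON. The ratios ran from 0.904 for *Pdx1* (0.776 to 1.05) to 1.07 for *Foxa2* (0.773 to 1.49), and the *Mafa* ratio was 0.917 (0.744 to 1.13). Of the 9 members 0 were 1.5-fold higher and 0 lower, beside 2.27% and 3.55% of 8205 genes. The members' median log2 ratio was -0.01 and that of all genes -0.04. Thus few genes of any kind differed between these 2 columns, and whether the response of a member differed between genotypes could not be tested with 1 pool per condition. The mutant CON level that serves as the base was itself higher than the WT CON level for *Mafa*, *Foxa2*, *Nkx6-1*, *Nkx2-2* and *Pax6*, as described next.

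The untreated genotypes were then compared directly. In Med14 S983A CON *Foxa2* was 2.35-fold (1.62 to 3.43) and *Mafa* 2.00-fold (1.61 to 2.49) the WT CON level. *Nkx6-1* was 1.42-fold (1.25 to 1.62), *Pax6* 1.28-fold (1.20 to 1.37) and *Nkx2-2* 1.13-fold (1.05 to 1.23) the WT level. The intervals of *Pdx1* (1.13-fold), *Neurod1* (1.12-fold) and *Isl1* (1.04-fold) included 1. *Rfx6* was lower, at 0.746 of the WT level (0.682 to 0.815).

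Here 2 of 9 members were past 1.5-fold higher and 0 lower, beside 22.8% and 24% of 8748 genes. Their median log2 ratio was 0.18, against -0.05 for all genes kept and 0.26 for those no longer than *Rfx6*. With the length trend removed the *Mafa* value went from 1.00 to -0.22, the *Foxa2* value from 1.23 to 0.14 and the *Rfx6* value from -0.42 to -0.22, while *Pax6* kept a value of 0.31 (0.36 before). *Nkx6-1* turned from 0.51 to -0.38 and *Nkx2-2* from 0.18 to -0.22. Because this comparison and the Ex-4 comparison in WT have the same WT CON column as base, a level particular to WT CON would enter both. The ribosomal RNA linked and mitochondrial share was 11.9% in Med14 S983A CON against 3.46% in WT CON. Rescaling the column totals without these genes gave 3 members higher and 0 lower, with a median log2 ratio of 0.31. In the same beta cell columns *Gcg* was at 1.25 CP10K against 0.375, *Sst* at 0.130 against 0.0299 and the PP cell markers together at 0.525 against 0.173. The beta cell marker sum was 34.8 against 43.0, but its genes did not share a direction. *Ins1* (8.518 against 4.545) and *Ins2* (15.2 against 10.41) were higher in Med14 S983A CON. *Iapp* (4.508 against 11.61), *G6pc2*, *Slc2a2* and *Ucn3* were lower. The part of these marker levels in the result was not tested, nor that of the share beyond the rescaling.

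**Figure D2:**
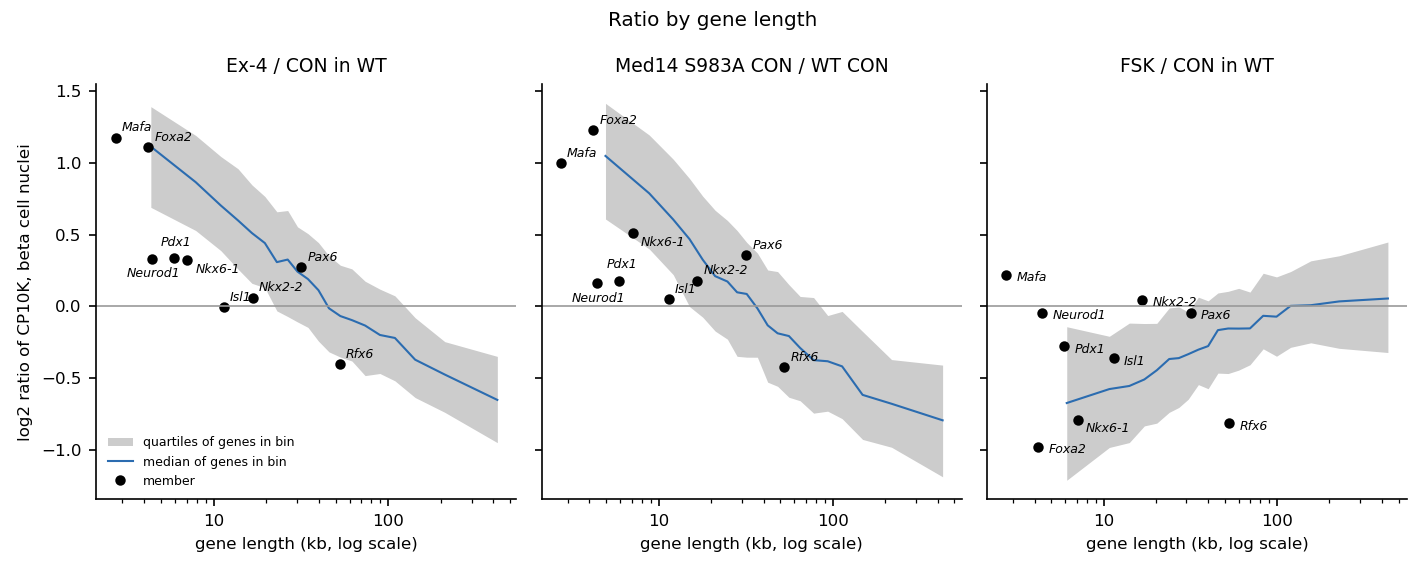
Log2 ratio of CP10K in beta cell nuclei (vertical axis) against gene length in kb (horizontal axis, log scale) for 3 comparisons, with the median (line) and quartiles (band) of all kept genes in 20 bins of length and each member as a point. In the panels of WT Ex-4 and of untreated genotypes *Mafa* and *Foxa2* lie at the height of the shortest genes and *Pdx1*, *Neurod1* and *Isl1* below the band, and in the FSK panel *Rfx6* lies below it.

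Under FSK another set of members was lower. In WT beta cells the FSK level of *Foxa2* was 0.506 of CON (0.303 to 0.829), that of *Rfx6* 0.568 (0.522 to 0.617) and that of *Nkx6-1* 0.578 (0.50 to 0.668). *Isl1* (0.778) and *Pdx1* (0.824) were lower by less. The intervals of *Mafa* (1.17), *Nkx2-2* (1.03), *Pax6* (0.970) and *Neurod1* (0.969) included 1. Thus 0 of 9 members were 1.5-fold higher and 3 lower, beside 7.85% higher and 25.9% lower of 8462 genes, and the members' median log2 ratio was -0.28 against -0.23 for all genes and -0.39 for those no longer than *Rfx6*.

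*Rfx6* is the member whose WT FSK value moved least when the length trend was removed. Its log2 ratio was -0.82 and was -0.63 afterwards, past the 1.5-fold threshold, and 1 member was then lower. *Nkx6-1* went from -0.79 to -0.13 and *Foxa2* from -0.98 to -0.26, whereas *Mafa* (0.98) and *Neurod1* (0.67) came out higher than genes of their length. *Pdx1* turned from -0.28 to 0.40 and *Isl1* from -0.36 to 0.22.

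In Med14 S983A beta cells the FSK level of *Nkx6-1* was 0.438 of CON (0.373 to 0.512), that of *Foxa2* 0.446 (0.296 to 0.663) and that of *Mafa* 0.50 (0.394 to 0.632). *Pdx1* was at 0.701 of CON (0.599 to 0.819), and *Pax6* (0.856), *Isl1* (0.860) and *Rfx6* (0.888) were lower by less. *Nkx2-2* (0.995) and *Neurod1* (1.04) had intervals that included 1, as in WT. Again 0 of 9 members were 1.5-fold higher and 3 lower, beside 24.4% higher and 27.8% lower of 8269 genes. The members' median log2 ratio was -0.22, that of all genes -0.04 and that of genes no longer than *Rfx6* -0.37. After the length trend was removed 1 member was higher, *Neurod1* (log2 ratio 0.06 before and 1.24 after), and 0 were lower. *Nkx6-1* went from -1.19 to -0.19, and *Pdx1* (-0.51 to 0.56), *Mafa* (-1.0 to 0.30), *Foxa2* (-1.17 to 0.02) and *Isl1* (-0.22 to 0.55) turned in direction. The ribosomal RNA linked and mitochondrial share was 2.76% in this FSK column against 11.9% in its CON column, and 2.88% against 3.46% in WT. Rescaling the column totals without these genes gave 4 members lower in Med14 S983A, with a median log2 ratio of -0.37. In WT it left 3 lower, with a median of -0.29. The part of the share was not tested beyond that rescaling.

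**Figure D3:**
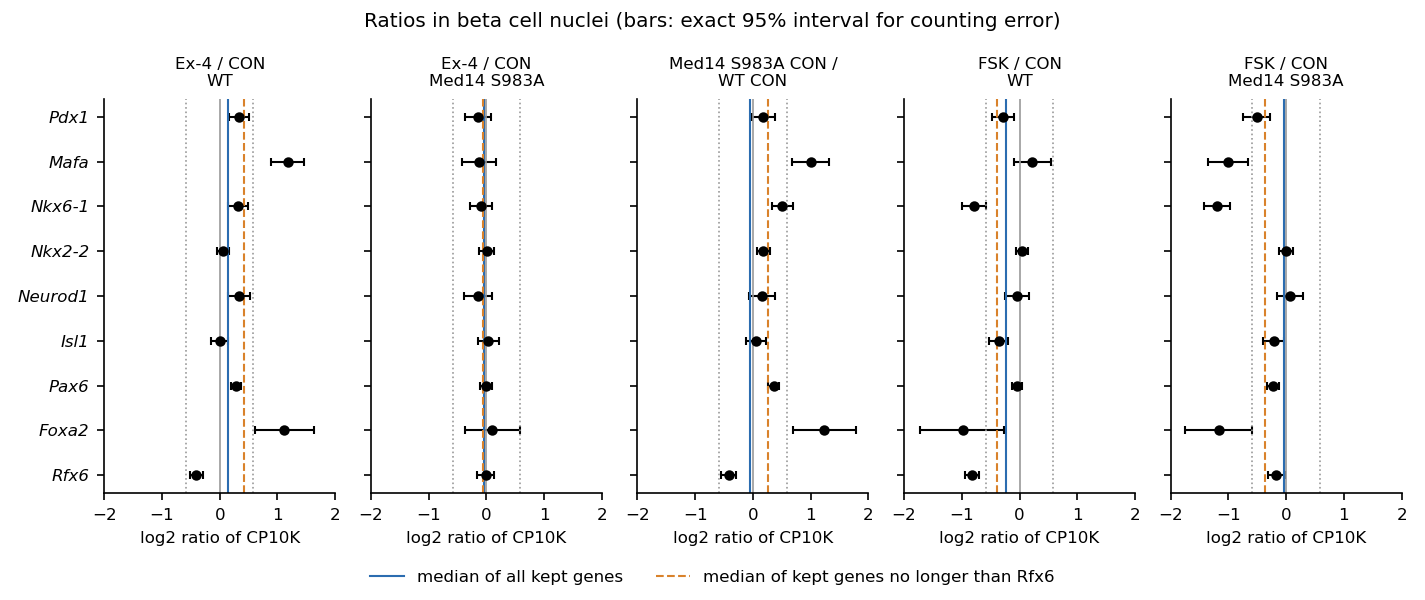
Log2 ratios of CP10K (horizontal axes) of the 9 members in beta cell nuclei in 5 comparisons, with exact 95% intervals for counting error, dotted lines at 1.5-fold, and vertical lines for the median of all kept genes and of kept genes no longer than *Rfx6*. The panel for Ex-4 in Med14 S983A has all 9 members within counting error of 0, and *Mafa* and *Foxa2* are right of the dotted line in the panels of WT Ex-4 and of the untreated genotypes.

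The genotypes were also compared within each treatment, a choice made after the values had been seen, since these comparisons do not use a CON column. Under Ex-4 the Med14 S983A level was 0.810 of WT for *Mafa* (0.672 to 0.975), 0.811 for *Pdx1* (0.707 to 0.930) and 0.804 for *Neurod1* (0.691 to 0.935), and 1.09 for *Nkx2-2* (1.01 to 1.18). The intervals of the other 5 members included 1. None of the 9 members was past 1.5-fold (0 higher and 0 lower, beside 1.56% and 8.01% of 9129 genes), and the members' median log2 ratio was 0.07 against -0.18 for all genes. Under FSK, *Foxa2* was 2.07-fold higher in Med14 S983A (1.23 to 3.53, from 40 and 26 counts). *Neurod1* (1.21-fold), *Rfx6* (1.17-fold), *Isl1* (1.15-fold), *Pax6* (1.13-fold) and *Nkx2-2* (1.09-fold) were higher by less, and *Mafa*, *Nkx6-1* and *Pdx1* were not separated from 1. This gave 1 of 9 members 1.5-fold higher and 0 lower, beside 11.6% and 1.53% of 7903 genes.

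To compare cell types, the order of the beta, alpha and delta levels of each member was taken in each condition. *Pdx1* was highest in beta cells in 6 of 6 conditions, and its delta level was 32.8% to 48.4% of the beta level while its alpha level was 2.74% to 21.0%. *Mafa* and *Nkx6-1* were also highest in beta cells in 6 of 6 conditions, with median delta levels of 14.1% and 15.7% and median alpha levels of 10.9% and 15.8% of the beta level. Their alpha and delta levels stood close to those of beta cell markers in the same columns. The 6 beta cell markers together had medians of 10.7% in alpha and 17.2% in delta cells. Single markers in delta cells had medians from 11.4% (*Slc2a2*) to 29.7% (*Iapp*), with *Ins1* at 15.4% and *Ins2* at 14.5%. In the pooled endothelial columns *Pdx1* was at 12.1%, *Mafa* at 17.1% and *Nkx6-1* at 18.1% of its beta median. The alpha levels of these 3 genes and the delta levels of *Mafa* and *Nkx6-1* were therefore not separated from background. The highest alpha level in a condition was 21.0% of beta for *Pdx1*, 18.9% for *Mafa* and 26.2% for *Nkx6-1*. It was 14.8% for the markers together and 26.7% for the marker *Ucn3*. *Pdx1* in delta cells lay above the marker sum (at most 20.5%) in each condition, but the marker *Iapp* alone was at 27.0% to 38.7%.

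Other factors were measured above the level of the summed beta cell markers in at least 1 other endocrine type. *Nkx2-2* was ordered beta, alpha, delta in 6 of 6 conditions, with alpha at 52.2% to 75.8% of beta and delta at 5.46% to 38.7%. *Neurod1* had the same order in 6 of 6 conditions, and its alpha interval was apart from beta in 3 of them. Its median delta level, 29.4% of beta, was close to the 28.7% of the pooled endothelial columns. Among the 3 types *Pax6* was highest in beta cells in 6 of 6 conditions, and alpha (median 69.5% of beta) and delta (72.0%) were below beta in each.

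*Isl1* and *Rfx6* were not highest in beta cells. *Isl1*, needed by all mature islet endocrine types, was ordered delta, alpha, beta in 6 of 6 conditions, with delta at 189% to 243% of beta. *Rfx6* was highest in delta cells in 6 of 6 conditions, at 123% to 208% of beta, and its beta and alpha levels were separated in only 3. *Foxa2* could not be ordered: the ratio intervals against beta included 1 in 6 of 6 conditions for alpha, delta and PP cells alike, at 3 to 41 counts per alpha or delta column. PP columns held few counts of any member (3 of *Mafa*, 12 of *Foxa2* and 14 of *Pdx1* over 6 conditions), and *Mafa* was at 0 in 4 of them, which allowed up to 0.235 to 0.633 CP10K at 3 counts. *Pax6* was the best counted in PP cells, at 4.64 to 7.46 CP10K.

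**Figure D4:**
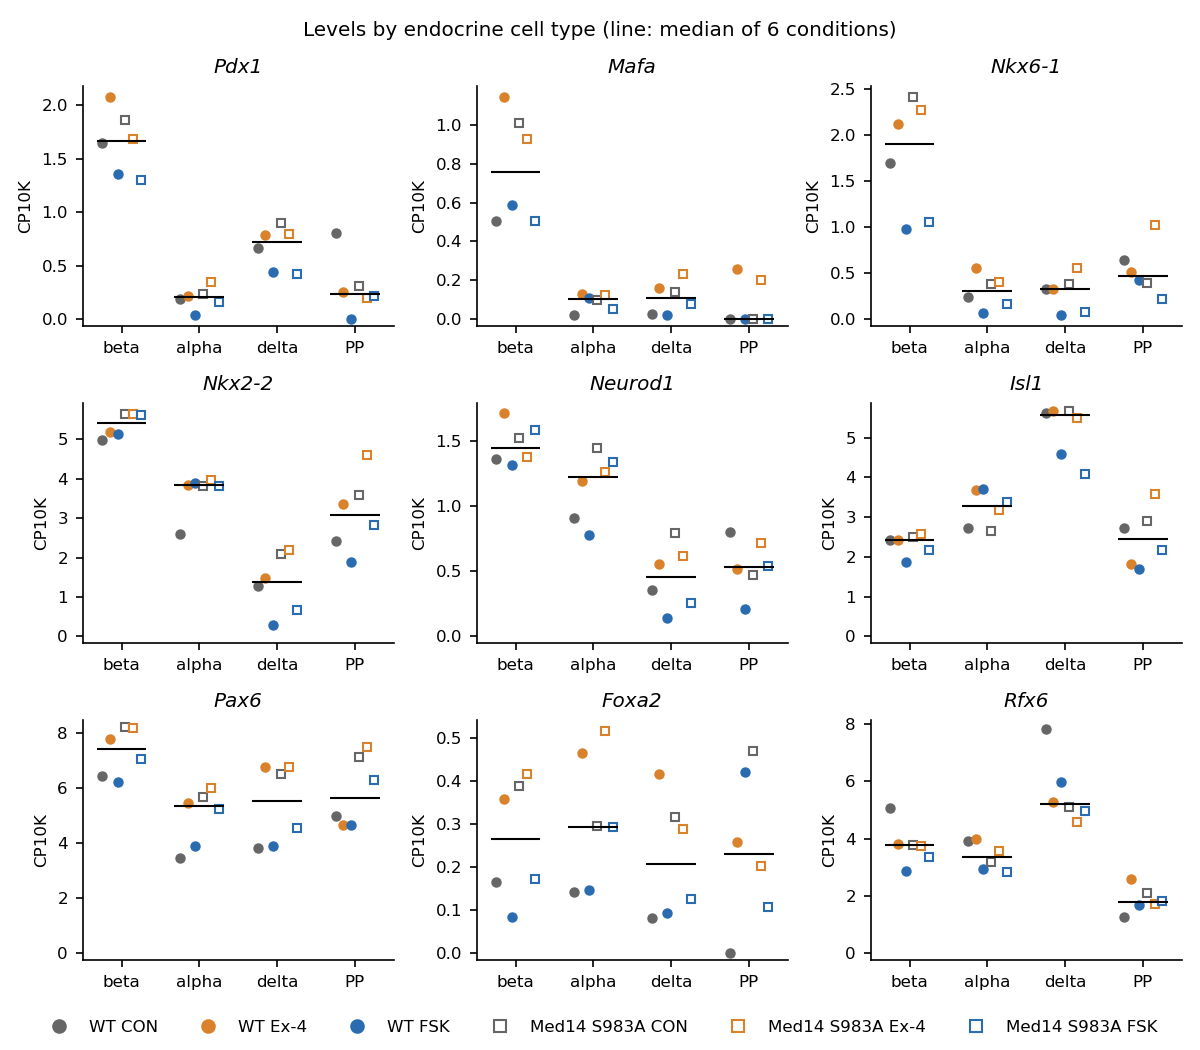
Levels of the 9 members (vertical axes, CP10K) in beta, alpha, delta and PP cell nuclei, with 1 point per condition (filled circles WT, open squares Med14 S983A, color by treatment) and a line at the median of the 6 conditions. *Pdx1*, *Mafa* and *Nkx6-1* stand highest in beta cells, and *Isl1* and *Rfx6* in delta cells.

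Under FSK, *Nkx2-2* was steady in beta cells and low in delta cells, a contrast that was chosen for description after the values had been seen. In delta cells it was at 1.27 CP10K in WT CON (46 counts), 1.48 in WT Ex-4 (64), 0.281 in WT FSK (12), 2.08 in Med14 S983A CON (118), 2.19 in Med14 S983A Ex-4 (121) and 0.681 in Med14 S983A FSK (43). In both genotypes FSK was below CON and Ex-4 with no overlap of intervals, and the FSK to CON ratio was 0.221 (0.107 to 0.424) in WT and 0.327 (0.225 to 0.467) in Med14 S983A. In beta cells the same ratios were 1.03 and 0.995. *Nkx6-1* went from 12 counts to 2 in WT (0.331 to 0.0468 CP10K) and from 22 to 5 in Med14 S983A (0.388 to 0.0792), and *Neurod1* from 13 to 6 (0.359 to 0.140) and from 45 to 16 (0.795 to 0.253). For *Neurod1* the ratio was 0.391 in WT (0.122 to 1.10, an interval that includes 1) and 0.319 in Med14 S983A (0.168 to 0.575).

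These are low levels, and *Nkx6-1* and *Neurod1* in delta cells were not separated from background above. In endothelial columns *Nkx2-2* was at 0.654 CP10K in WT CON (8 counts), 0.322 in WT FSK (2), 1.13 in Med14 S983A CON (18) and 1.04 in Med14 S983A FSK (15). The summed beta cell markers in delta cells were 8.69 CP10K in WT CON and 5.01 in WT FSK, and 6.55 and 6.57 in Med14 S983A. Within that sum *Ins1*, *Ins2*, *Slc2a2* and *Ucn3* were lower under FSK than in CON in both genotypes. *Ins2* went from 1.82 to 0.468 in WT and from 2.28 to 0.760 in Med14 S983A, and *Slc2a2* from 2.125 to 0.2105 and from 0.742 to 0.269. *Iapp* was higher in both (3.45 to 3.81 and 1.54 to 4.53), and *G6pc2* was lower in WT and higher in Med14 S983A. Delta cell markers (*Sst*, *Rbp4*, *Hhex*, *Ghsr*) stood higher under FSK, at 9.73 CP10K against 5.38 in WT and 7.68 against 4.36 in Med14 S983A. The ribosomal RNA linked and mitochondrial share of delta cell counts was 3.48% in WT CON, 2.20% in WT FSK, 11.5% in Med14 S983A CON and 2.63% in Med14 S983A FSK. The part of these in the *Nkx2-2* values was not tested.

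The members kept at 50 counts in delta cells gave 0 higher and 1 lower of 4 under FSK in WT, beside 18.8% and 15.1% of 3025 genes. In Med14 S983A they gave 0 higher and 3 lower of 6 (*Nkx2-2*, *Neurod1* and *Pdx1*), beside 29.3% and 17.8% of 4470 genes. *Pdx1* was at 0.475 of CON there (0.286 to 0.772) and *Pax6* at 0.698 (0.596 to 0.816), while *Rfx6* was at 0.971 (0.825 to 1.14). *Isl1* was lower under FSK in both genotypes, with ratios of 0.814 in WT (0.666 to 0.996) and 0.721 in Med14 S983A (0.610 to 0.852).

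**Figure D5:**
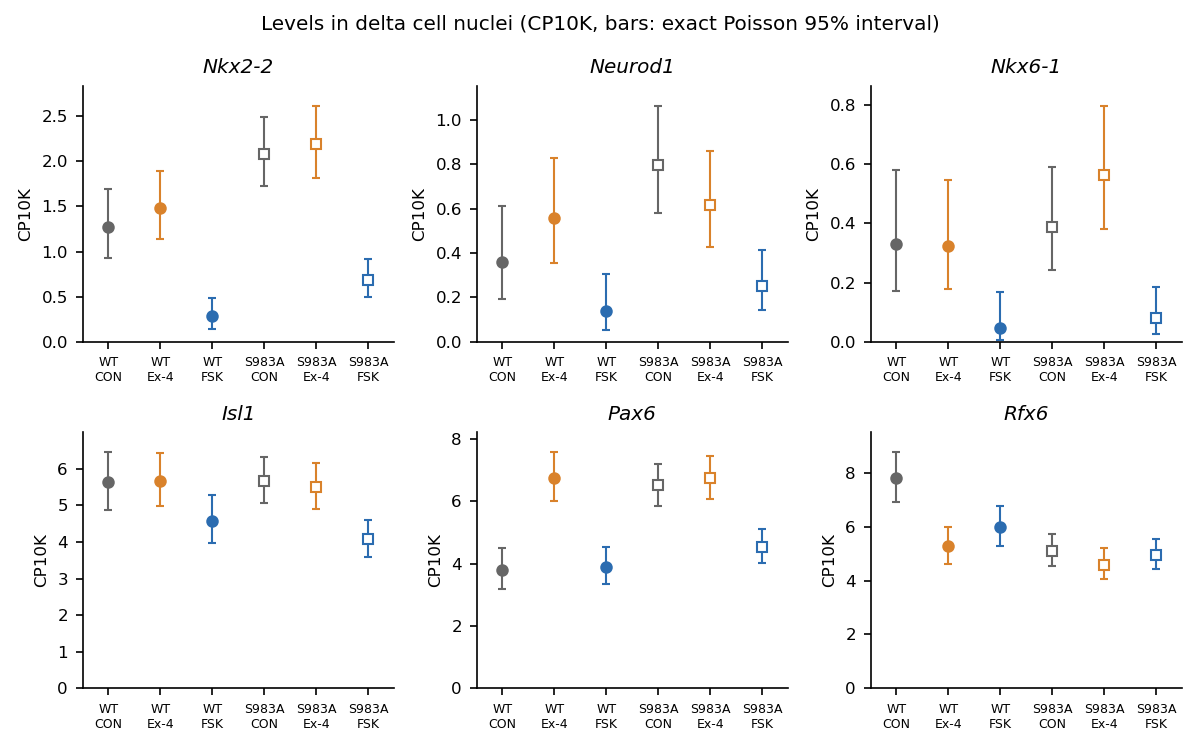
Levels of 6 members in delta cell nuclei (vertical axes, CP10K, starting at 0) in the 6 conditions, with filled circles for WT, open squares for Med14 S983A and bars for the exact Poisson 95% interval. *Nkx2-2* is lowest in the 2 FSK conditions, at 0.281 and 0.681 CP10K, and *Rfx6* is highest in WT CON at 7.81 CP10K.

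Some members also differed between conditions in alpha and delta cells. *Pax6* was at 3.46 CP10K in WT CON alpha cells (145 counts), 5.45 in WT Ex-4 (246), 3.90 in WT FSK (105), 5.65 in Med14 S983A CON (458), 6.0 in Med14 S983A Ex-4 (476) and 5.24 in Med14 S983A FSK (412). In delta cells *Pax6* was at 3.81 in WT CON and 3.91 in WT FSK, and at 6.76, 6.52 and 6.75 in WT Ex-4, Med14 S983A CON and Med14 S983A Ex-4, with 4.55 in Med14 S983A FSK. In both cell types WT CON and WT FSK were the 2 lowest, with intervals that overlapped each other. *Nkx2-2* in alpha cells was at 2.60 CP10K in WT CON (109 counts) and between 3.81 and 3.97 in the other 5 conditions. *Rfx6* in delta cells was at 7.81 CP10K in WT CON (283 counts) and between 4.60 and 5.99 in the other 5, so that its WT CON level was highest in delta as in beta cells. The ribosomal RNA linked and mitochondrial share of alpha cell counts was also low in WT CON (3.96%) and in both FSK conditions (5.36% in WT and 5.18% in Med14 S983A) and 12.5% to 17.6% in the others, and its part was not tested.

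To see whether the wider network moved, other islet transcription factors were counted in beta cells, 17 of 20 listed genes being measured. The shares and medians over all genes given above apply here too. Values of this list and of the lists that follow are given without removal of the length trend. In the bin of longest genes the median log2 ratio was -0.65 for Ex-4 in WT and -0.79 between the untreated genotypes. It was 0.055 for FSK in WT and 0.76 for FSK in Med14 S983A. The part of gene length in these lists was not tested. Under Ex-4 in WT 2 were 1.5-fold higher and 8 lower (median log2 ratio -0.40). The highest were *Insm1* (1.00), a zinc finger factor of endocrine differentiation, and *Mnx1* (0.73), and the lowest *Rfx3* (-1.28) and *Zbtb20* (-1.19). In Med14 S983A Ex-4 gave 0 higher and 1 past 1.5-fold lower (median -0.08), *Bach2* (-0.69), whose ratio of 0.619 was within counting error of 1 (0.356 to 1.05, from 24 and 39 counts). In the untreated mutant 2 were higher and 8 lower than in WT (median -0.57), led by *Insm1* (1.41) and *Mlxipl* (0.64), which encodes the glucose-responsive factor ChREBP, and at the low end *Rfx3* (-1.56) and *Glis3* (-1.49). FSK gave 2 higher and 1 lower in WT (median -0.02), with *St18* (1.15) and *Foxo1* (0.63) highest and *Mlxipl* (-2.03) lowest. FSK in Med14 S983A gave 8 higher and 4 lower (median 0.46), with *Rfx3* (2.06) and *St18* (1.5) highest and *Mlxipl* (-2.46) and *Insm1* (-1.55) lowest.

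Proteins that bind the members were counted next, 15 of 16 being kept. Of all genes kept, 26.0% were 1.5-fold higher and 12.7% lower for Ex-4 in WT. The shares were 22.8% and 24% for the untreated mutant against WT, and 2.27% and 3.55% for Ex-4 in Med14 S983A. For FSK they were 7.85% and 25.9% in WT and 24.4% and 27.8% in Med14 S983A. Under Ex-4 in WT 3 were 1.5-fold higher and 0 lower (median log2 ratio 0.30), with the ubiquitin ligase partners *Rnf40* (1.32) and *Rnf20* (1.08) highest and *Spop* (-0.45) lowest. In the untreated mutant 5 were higher and 0 lower than in WT (median 0.33), again with *Rnf20* (1.26) and *Rnf40* (1.25) highest and *Ssbp3* (-0.58) lowest. Ex-4 in Med14 S983A gave 0 higher and 1 past 1.5-fold lower (median -0.10), *Psmd9* (-0.71), again within counting error (ratio 0.613, 0.357 to 1.03). FSK gave 0 higher and 4 lower in WT (median -0.33) and 0 higher and 10 lower in Med14 S983A (median -0.75), and in both *Ldb1*, the LIM domain binding partner of Isl1, was lowest (-1.27 and -1.74).

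Genes known to be bound or activated by members did not follow one direction. The shares of all genes given for the partner proteins apply to them as well. Of 15 kept under Ex-4 in WT 1 was 1.5-fold higher, *Ins2* (log2 ratio 0.66), and 6 were lower (median -0.29), with *G6pc2* (-1.14) and *Iapp* (-1.14) lowest. In the untreated mutant 2 were higher than in WT, *Ins1* (0.91) and *Kcnj11* (0.67), and 7 lower (median -0.48), again with *G6pc2* (-1.40) and *Iapp* (-1.37) lowest. Ex-4 in Med14 S983A gave 0 higher and 0 lower (median 0.05). Under FSK 3 of 16 were higher and 4 lower in WT (median -0.13), with *G6pc2* (1.10), a glucose-6-phosphatase subunit of beta cells, and *Nptx2* highest and *Ucn3* (-1.12), a marker of mature beta cells, and *Slc30a8* (-0.82), the granule zinc transporter, lowest. In Med14 S983A FSK gave 6 higher and 4 lower (median 0.13), with *Ins1* (-1.25) lowest and *G6pc2* (2.55) among the highest. *Nptx2* was counted as higher under FSK, with 66 counts in WT and 70 in Med14 S983A and 0 in each CON column.

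Genes linked to loss of beta cell identity were near the detection limit. Of 10 such genes 6 were in the table, and none reached 50 counts in a comparison with a CON column or between the genotypes under Ex-4. *Aldh1a3*, an aldehyde dehydrogenase gene, had 30 counts in WT FSK and 22 in Med14 S983A FSK and 0 in each of the other 4 conditions.

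The genes whose levels tracked each member most closely over the 24 endocrine columns were then listed, by Pearson correlation of log2(CP10K + 1) among 9892 genes. The columns share depth and cell type, so these values are descriptions. *Mafa* ranked with *Ins1* (r = 0.953) and *Ins2* (0.951), the insulin genes, and with *Gm21973* (0.945). *Pdx1* ranked with *Jakmip1* (0.942), *Glp1r* (0.938), which encodes the receptor of Ex-4, and *Grin1* (0.937), and *Nkx6-1* with *Dhrs4* (0.923), *Mafa* (0.908) and *Ins2* (0.906). For *Neurod1* the closest were *Coro2b* (0.915), *Vdr* (0.895) and *Pfkfb2* (0.868), and for *Nkx2-2* *Disp2* (0.860), *Soga1* (0.853) and *Plcg1* (0.848). *Isl1* ranked with *Clmn* (0.897), *Dpp6* (0.873) and *Arg1* (0.856), and *Rfx6* with *Cfap69* (0.875), *Lrp8* (0.866) and *Jam3* (0.859). *Pax6* ranked with *Ganab* (0.836), *Sv2a* (0.822) and *Macf1* (0.819), and *Foxa2* with *2310033P09Rik* (0.905), *Rbck1* (0.878) and *Asphd1* (0.878). Between members the highest correlations were *Mafa* with *Nkx6-1* (0.908), *Mafa* with *Pdx1* (0.843) and *Nkx2-2* with *Neurod1* (0.840), and the lowest was *Isl1* with *Nkx2-2* (-0.571).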

How the data were processed

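The measurement was single nucleus RNA-seq of mouse islets by combinatorial barcoding (Evercode), aligned to mm39 per the labels. The authors removed nuclei with extreme counts or a high mitochondrial share, merged the samples and normalized them with SCTransform, integrated them with Harmony, annotated the nuclei, downsampled to equal nuclei per sample, and deposited natural log values, ln(1 + 10000 × count / column total), for 17362 genes in 54 pooled columns (6 conditions by 9 cell types). The annotation release, and whether the pooled counts are raw or SCTransform-corrected, are not given in the sources used here. If corrected, the intervals are those of corrected counts and not of reads. Counts were recovered from the deposited natural log values: 100% lay within 0.001 of a whole number. Totals ran from 1522 (ductal) to 3094377 counts (beta).

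Ratios of CP10K were computed for genes with at least 50 counts in the 2 columns together, and 1.5-fold was the threshold. Exact Poisson and Clopper-Pearson 95% intervals (scipy 1.17.1) cover counting error only; with 1 value per condition there was no test. The scripts were tested on simulated counts. Gene lengths came from GENCODE M39 for 16531 genes with a single match by name. Promoter sequences are credited to RefSeq. Alternatives were a difference of log2(CP10K + 1), other count minimums (none, 200), 2-fold, 2 rescalings and subtraction of a lowess curve fitted to gene length (span 0.3, statsmodels 0.14.6). Genes outside the 9 members were named as the 2 highest and 2 lowest of a list, or the 3 genes most correlated with a member; genes singled out otherwise were chosen after their values were seen. The members and lists were chosen with earlier results of these data known. One further gene list is not reported here.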

Additional observations from a re-analysis of the deposited data

Results flagged for a closer look

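Nuclei annotated as other cell types entered no comparison between conditions, the endothelial columns serving only as a reference level, and members had counts there above the limit that a count of 0 allows. Summed over the 6 conditions and 5 cell types (muscle, endothelial, ductal, neuron and macrophage), there were 239 counts of *Pax6*, 195 of *Nkx2-2*, 125 of *Rfx6*, 88 of *Isl1*, 67 of *Nkx6-1*, 67 of *Neurod1*, 40 of *Pdx1*, 25 of *Mafa* and 14 of *Foxa2*. Pooled over conditions, the columns annotated as neurons stood highest for 8 of the 9 members, *Foxa2* excepted. There *Isl1* was at 2.01 CP10K (1.41 to 2.78; 83.0% of its beta cell median), *Nkx2-2* at 4.13 (3.24 to 5.18; 76.4%) and *Mafa* at 0.502 (0.230 to 0.953; 66.4%). Most of these counts came from the 2 Ex-4 columns, which are also the deepest neuron columns (51758 and 58294 counts). *Nkx2-2* was at 5.02 CP10K in WT Ex-4 and 6.0 in Med14 S983A Ex-4 (26 and 35 counts), and at 0.493 in Med14 S983A FSK (1 count) and 0 in WT FSK, where a count of 0 allows up to 7.42. *Isl1* had 12 and 17 of its 36 counts in the Ex-4 columns, and *Nkx6-1* 13 and 10 of its 23. In the endothelial columns *Isl1*, *Nkx2-2* and *Mafa* were at 16.6%, 18.4% and 17.1%. The 6 beta cell markers together were at 44.3% of their beta cell median in neuron columns and at 7.33% to 14.8% in the other 4 cell types.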

How the results depend on the processing

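Only counting error is covered, because each condition has 1 pooled value, and the least counted members (*Foxa2*, and most members in PP cells) carry the widest intervals. No paired analysis was possible because the result comes from no test. Removal of the gene length trend changed the most. With it, members 1.5-fold higher and lower in beta cells went from 2 and 0 to 0 and 3 for Ex-4 in WT, from 2 and 0 to 0 and 2 for Med14 S983A CON against WT CON, from 0 and 3 to 2 and 1 for FSK in WT, and from 0 and 3 to 1 and 0 for FSK in Med14 S983A. The members' median log2 ratios became -0.45, -0.22, 0.27 and 0.30 in the same order. The log2 ratio of *Mafa* reversed to -0.038 for Ex-4 in WT, to -0.22 at baseline and to 0.30 for FSK in Med14 S983A, where *Foxa2* reversed to 0.025. On the scale of log2(CP10K + 1), which compresses low levels, members higher fell to 0 for Ex-4 in WT and at baseline, and 1 was lower under FSK in each genotype. A minimum of 200 counts, which dropped *Foxa2*, left 1 higher for Ex-4 in WT and 1 at baseline. At 2-fold 1 was higher at baseline and 0 lower for FSK in WT. Rescaling without ribosomal RNA linked and mitochondrial genes moved the members' median to 0.31 at baseline and to -0.37 for FSK in Med14 S983A, and centring on the median of all genes moved it to -0.050 for FSK in WT. The order of cell types held for 5 of 9 members in WT FSK alone and for 6 to 9 in the other conditions. For Ex-4 in Med14 S983A every count and median stayed close to its first value under the alternatives run. Of 180 values of single members under an alternative, 33 took the opposite sign, 23 of them with the length trend removed. In 13 of the 33 the ratio had been apart from 1 beyond counting error, all 13 with the length trend removed, and 4 of these, named above, had been past 1.5-fold. Without a count minimum the shares of all genes higher and lower were 32.1% and 11.6% for Ex-4 in WT, and 8.14% and 41.1% for FSK in WT. Rescaling gave 30.4% and 9.77%, and centring 20.3% and 18.3%, for Ex-4 in WT.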
